A study of Mus musculus with 34 samples.

Results

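The immunity-related GTPases, also called p47 GTPases or IRG proteins, were followed through 6 genes, Irgm1, Irgm2, Igtp, Ifi47, Iigp1 and Tgtp1, which were picked by name. All 6 have a row among the 13108 gene rows of the count table, and all 6 passed the filter on low counts in each comparison. The libraries are RNA-seq libraries made by SMART-Seq2 (a full-length method for small cell numbers) from 100 hematopoietic stem cells (HSCs) each, sorted as LSK CD48-CD150+ cells from mice of the C57BL/6 strain. Ythdf2 encodes a reader of the RNA mark m6A that promotes decay of the marked transcripts. In Ythdf2 CKO mice the floxed gene is deleted in blood cells by Vav-iCre, a Cre driven by Vav regulatory sequences and so active from HSCs onward in the whole blood system, and Ythdf2 CTL mice carry the same floxed alleles without Cre. The floxed allele itself, present in both genotypes, fuses GFP to YTHDF2. There were 4 young Ythdf2 CTL, 4 young Ythdf2 CKO, 4 aged Ythdf2 CTL and 5 aged Ythdf2 CKO mice, the aged mice being 1 year old. The comparison of genotypes asks which transcripts change in HSCs that lack YTHDF2, and the comparison of ages asks whether that change is the same in older mice.

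The p47 GTPases are interferon-inducible proteins of mouse cells that defend the cell interior. On the membrane of vacuoles that hold a parasite or bacterium, the effector members (Ifi47, Iigp1 and Tgtp1, also known as Irgd, Irga6 and Irgb6) load GTP, assemble and help to break the membrane. The regulator members (Irgm1, Irgm2 and Igtp, the last also known as Irgm3) sit on the cell's own membranes and hold the effectors inactive there, and proteins of the autophagy conjugation system help to place both kinds. In HSCs, Irgm1 is known as a brake on the response to interferon, since stem cells of mice without it divide too much and engraft poorly.

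Of the genes, 5 lie in 2 groups on chromosome 11 (GRCm38, RefSeq annotation). Irgm1 (48865245 to 48871420), Tgtp1 (48985329 to 48992246) and Ifi47 (49076587 to 49096987) form the first group, and Igtp (58199556 to 58207592) and Irgm2 (58214977 to 58222783) lie 9102568 bases further on, with 7384 bases between them. Iigp1 lies on another chromosome and its sequence is not shown. The difference between regulators and effectors is visible in the coding sequence. In the first GTP-binding motif, the P-loop, the effectors have the usual lysine codon and the regulators have a methionine codon in its place, which also gave the groups their names GKS and GMS. The stretches below show 48 coding bases around that codon, which is in capitals, from the GENCODE M21 transcripts of the genes on chromosome 11, each within a single exon:
Irgm1, chr11:48866749-48866796, minus strand, exon 3: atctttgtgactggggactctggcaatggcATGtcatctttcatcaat
Irgm2, chr11:58219683-58219730, plus strand, exon 3: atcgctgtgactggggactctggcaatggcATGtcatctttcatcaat
Igtp, chr11:58206263-58206310, plus strand, exon 3: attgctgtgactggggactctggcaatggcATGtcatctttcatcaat
Ifi47, chr11:49095636-49095683, plus strand, exon 2: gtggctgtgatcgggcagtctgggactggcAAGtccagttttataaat
Tgtp1, chr11:48987655-48987702, minus strand, exon 2: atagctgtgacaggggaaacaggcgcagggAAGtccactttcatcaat

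Longer stretches shared between genes bear on the counts. The coding sequence of Tgtp1 differs from that of its neighbor Tgtp2 at 4 of 1245 bases, and 81.2% of the 50-base words in Tgtp1 transcripts also occur in another gene, nearly all in Tgtp2. A read from either gene could therefore have been given to the other, or dropped, so the level of Tgtp1 is uncertain, and values of Tgtp2 are given beside its results. Igtp shares 11.8% of its words with other genes and Irgm2 7.77%, where the shared words of Igtp are those of Irgm2 and the genes have 162 annotated exon bases in common. The shares were 2.54% for Ifi47, 1.69% for Iigp1 and 0.31% for Irgm1.

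The RefSeq promoter windows (GRCm38.p6) of the same genes were searched for the letters of the 2 classical interferon response elements. These are the interferon-stimulated response element (ISRE, searched as GAAA, any 2 bases and GAAA), recognized by IRF proteins, and the gamma-activated site (GAS, searched as TTC, any 3 bases and GAA), named for its part in the response to interferon-gamma. Both strands of the 250 bases before each start were searched, in 32851 windows in all, and 5 of the 6 members had a window. ISRE letters stood in 4 of those 5 (Irgm1, Irgm2, Igtp and Tgtp1) and in 2.98% of all windows. GAS letters stood in 3 of the 5 (Irgm2, Igtp and Tgtp1) and in 7.02% of all windows, and both stood in 0.332% of all windows. No letters of either kind were in the window of Ifi47, which lies before a single RefSeq start, and bases outside it were not searched. The 3 windows with both had them in the same arrangement, GAS, then 2 bases, then ISRE with no overlap, and Tgtp2 had it too. The matches are shown in capitals, with the flanking bases before the RefSeq start of each gene:
Igtp, chr11:58199461-58199555, plus strand: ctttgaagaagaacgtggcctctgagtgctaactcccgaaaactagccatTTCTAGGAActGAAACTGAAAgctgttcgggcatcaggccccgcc
Irgm2, chr11:58214852-58214946, plus strand: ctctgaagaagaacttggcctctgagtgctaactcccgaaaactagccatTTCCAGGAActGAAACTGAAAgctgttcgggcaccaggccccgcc
Tgtp1, chr11:48992290-48992384, minus strand: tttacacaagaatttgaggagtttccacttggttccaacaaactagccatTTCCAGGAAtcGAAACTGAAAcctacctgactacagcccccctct
Tgtp2, chr11:49064249-49064343, minus strand: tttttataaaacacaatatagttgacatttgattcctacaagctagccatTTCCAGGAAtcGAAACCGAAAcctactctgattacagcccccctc
Irgm1, chr11:48871428-48871457, minus strand: gtttcaaGAAATAGAAACCGAAActgattc

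Searched as a single word (the GAS letters, any 2 bases and the ISRE letters, a choice made after these windows were read), the arrangement was found in 5 of the 32851 windows, or 0.0152%. The 5 windows belong to Igtp, Irgm2, Tgtp1, Tgtp2 and Gm12185, a gene that shares 50-base words with Tgtp1. In Irgm1 the capitals are 2 ISRE matches that overlap and share a GAAA, and its 30 bases, before the RefSeq start, lie within a GENCODE M21 exon of Irgm1. A match is a stretch of letters and does not show that a protein binds there.

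The 33 libraries used held between 1859784 and 7784627 counts. Summed over its libraries, a mouse had 2218618 to 10125624 counts, and the mouse was the replicate. Levels are CPM, counts scaled to library size, on a single TMM scale over the 17 mice. The library identifiers in the sample descriptions differ in form between young and aged mice, and age and whatever that marks cannot be told apart. Counts of Y-linked genes were high in young CTL 1, 2 and 3, young CKO 1, aged CTL 99 and aged CKO 78, and at 0 or 1 in the other mice, so the sexes are spread unevenly over the genotypes. Of the HSC marker genes, 10 of 10 had a row, and their summed level lay between 1123 and 2748 CPM. Among the defining B cell and T cell genes, Pax5, Cd3e, Cd3d and Cd3g had no row, Ms4a1 was at 0 in each group, and Cd79a was at 0 in the young groups, while Cd79b stood at 83.3 ± 4.86 CPM in young CTL and 120.1 ± 26.2 CPM in young CKO mice (log2 difference 0.53, SE 0.18, edgeR adjusted P = 0.4605) and Nkg7 at 442.5 ± 61.1 and 412 ± 47.7 CPM. The summed granulocyte and monocyte genes (7 of 8 with a row) were at 189.6 to 267 CPM in young CTL and 261 to 361 CPM in young CKO mice. Prtn3 made up most of these sums (212.1 ± 40.0 and 296.6 ± 40.3 CPM), while Mpo was at 10.6 ± 4.84 and 3.69 ± 4.58 CPM. Of the 5 genes of this list tested in young mice, 2 had an estimate above 0, and the median log2 difference was -0.39. The summed level of the megakaryocyte and platelet genes (5 of 5 with a row, Pf4 the most abundant) was 499 to 863 CPM in young CTL and 969.6 to 3092 CPM in young CKO mice, and 337 to 523 CPM in aged CTL and 531.5 to 1959 CPM in aged CKO mice, with the lowest of the latter in mouse 121. In young mice 4 of these 5 genes had an estimate above 0, and Gp9 was at -0.45 on the log2 scale (SE 0.20, edgeR adjusted P = 0.674). Cd48, the gene of a surface protein that the sort excludes, was at 53.9 to 87.1 CPM in young CTL and 98.0 to 106 CPM in young CKO mice, and at 0.629 to 28.2 CPM in aged CTL and 1.86 to 19.5 CPM in aged CKO mice. Between aged and young CTL mice Cd48 was lower on the log2 scale (-2.48, SE 0.73, edgeR adjusted P = 0.0273) and so was Nkg7 (-0.93, SE 0.25, edgeR adjusted P = 0.0167). The summed macrophage genes (5 of 5) were at 22.1 to 59.6 CPM in young CTL and 12.1 to 47.1 CPM in young CKO mice, and in the aged mice at 26.01 to 65.0 CPM in CTL and 1.17 to 5.75 CPM in CKO mice, with Adgre1 at 0 in aged CKO mice. In these bulk samples fewer cells of a type and less RNA per cell cannot be told apart. The part of the marker differences in the results was not tested.

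The targeted gene checked the labels. Its counts are for the whole gene, and reads outside the deleted exon 2 were not separated from those within it. Ythdf2 stood at 118, 123, 93.4 and 97.2 CPM in young CTL 1 to 4 and at 55.6, 57.6, 60.3 and 50.3 CPM in young CKO 1 to 4. These groups did not overlap, and Ythdf2 fell by 0.95 on the log2 scale (edgeR quasi-likelihood test, SE 0.17, adjusted P = 0.0406). In aged CTL mice Ythdf2 stood at 179, 164 and 142 CPM in mice 65, 99 and 114 and at 70.5 CPM in mouse 124. In aged CKO mice it stood at 75.8, 87.75, 73.75 and 72.4 CPM in mice 78, 81, 94 and 122 and at 188 CPM in mouse 121. The mice labelled aged CTL 124 and aged CKO 121 therefore went against their labels in Ythdf2, while in the summed macrophage genes mouse 121 (3.16 CPM) was like the other aged CKO mice and mouse 124 (65.0 CPM) like the other aged CTL mice. In the summed megakaryocyte and platelet genes mouse 121 (531.5 CPM) was near the aged CTL mice (337 to 523 CPM) and far below the other aged CKO mice (1534 to 1959 CPM), and mouse 124 (503 CPM) was within the aged CTL range. The aged results are given as labelled and without these 2 mice.

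**Figure D1:**
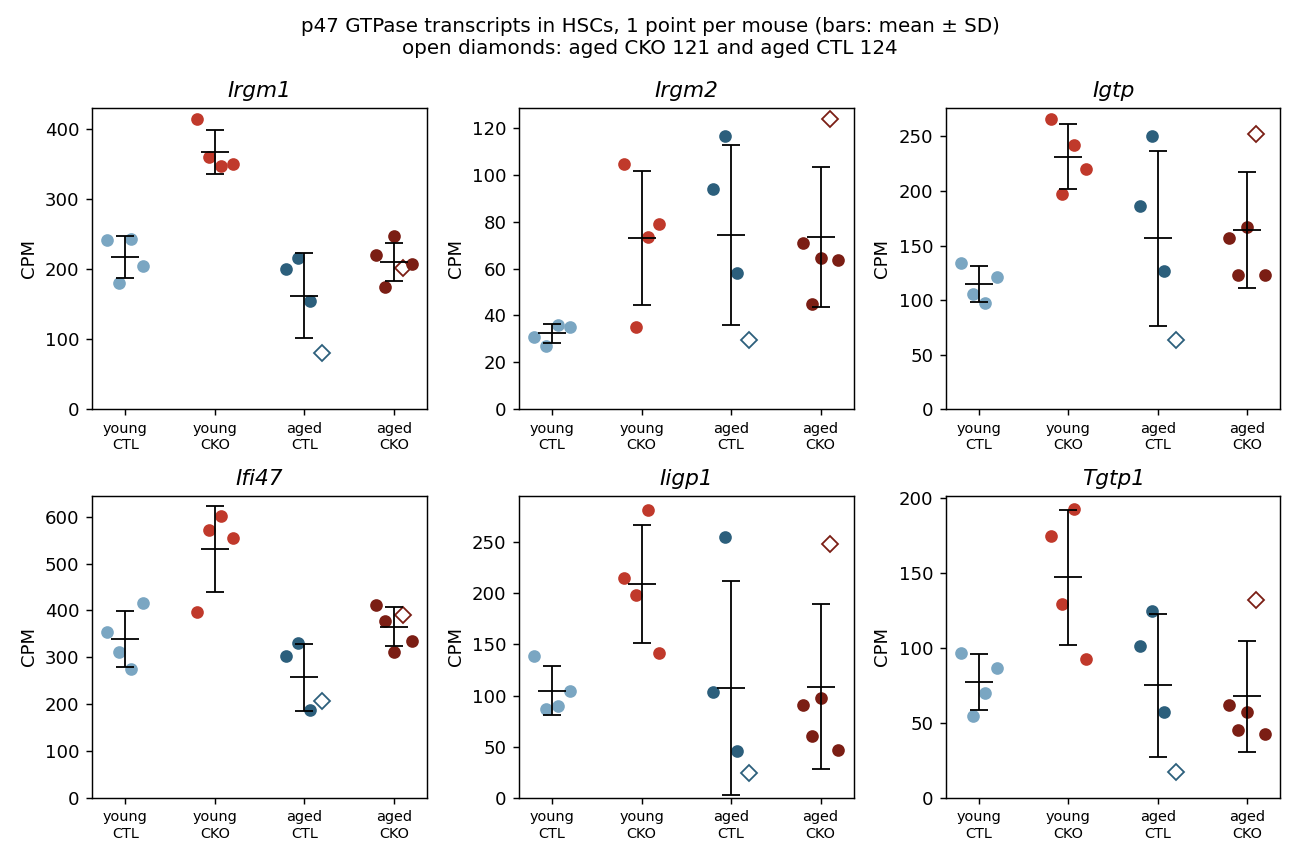
CPM of each gene (vertical axis, linear from 0) in each mouse of the 4 groups, with the mean and SD as bars, regulators in the upper row and effectors in the lower row. The young CKO mice sit highest on average for Irgm1, Igtp, Ifi47, Iigp1 and Tgtp1, and the aged CTL mouse 124 (open diamond) is the lowest mouse for Irgm1, Igtp, Iigp1 and Tgtp1.

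In young HSCs, 2 of the 6 members, both regulators, rose in Ythdf2 CKO mice at an adjusted P below 0.05 (edgeR quasi-likelihood test, Benjamini-Hochberg adjustment over 11526 genes), where 0.130% of all genes tested rose. The estimates of the 6 genes lay between 0.65 and 1.18 on the log2 scale, with a median of 0.97 beside a median of -0.001 over all genes. At an unadjusted P below 0.05 the 6 were higher in CKO mice, as were 4.26% of all genes. In 3 members (Irgm1, Igtp and Iigp1) the lowest CKO mouse stood above the highest CTL mouse, which held for 2.68% of all genes.

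Irgm1, the regulator that restrains interferon responses in HSCs, stood at 241, 179.8, 242 and 205 CPM in young CTL 1 to 4 and at 413, 359, 346 and 349.5 CPM in young CKO 1 to 4. The groups did not overlap. Irgm1 rose by 0.76 on the log2 scale (SE 0.14, 95% interval 0.47 to 1.06, edgeR adjusted P = 0.0406). Group means were 217 ± 30.2 CPM (SD, n = 4) in CTL and 367 ± 31.4 CPM (SD, n = 4) in CKO mice. This call depended on single mice. It was lost in 7 of 8 fits that left out 1 mouse (edgeR adjusted P between 0.0770 and 0.172) and was kept without CKO 3 (edgeR adjusted P = 0.0311).

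Igtp, the regulator known as Irgm3, had the smallest P of the family. Its levels were 134, 106, 97.6 and 121 CPM in young CTL 1 to 4 and 266, 198, 242 and 220.4 CPM in young CKO 1 to 4, again without overlap. Igtp rose by 1.02 on the log2 scale (SE 0.16, 95% interval 0.69 to 1.35, edgeR adjusted P = 0.0145), and the mean went from 115 ± 16.3 CPM in CTL to 231.5 ± 29.3 CPM in CKO mice. Without CTL 1, CTL 2, CTL 3 or CKO 1 the call was lost (edgeR adjusted P of 0.0679, 0.0996, 0.104 and 0.0620).

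Irgm2, the third regulator, had the lowest mean of the members in both young groups, and in young CKO mice the widest spread for its mean. It stood at 30.8, 27.1, 36.15 and 35.3 CPM in young CTL 1 to 4. In young CKO 1, 3 and 4 it stood at 105, 73.5 and 79.2 CPM, while CKO 2 was at 35.3 CPM, within the CTL range. The log2 difference was 1.18 (SE 0.28, 95% interval 0.59 to 1.77), which did not pass the adjustment (edgeR adjusted P = 0.150). Without CKO 2 it was 1.41 (edgeR adjusted P = 0.0403).

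Among the effectors, Ifi47 was the most abundant, with 353, 312, 276 and 417 CPM in young CTL 1 to 4 and 397, 571, 602 and 554 CPM in young CKO 1 to 4. CKO 1 lay below CTL 4, and the other 3 CKO mice were above the CTL mice. Its log2 difference was 0.65 (SE 0.16, 95% interval 0.31 to 0.99, edgeR adjusted P = 0.208). CKO 1 was also the CKO mouse with Y-linked counts, and with those counts as a covariate the difference of Ifi47 was 0.41.

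Iigp1 (chromosome 18, 60373616 to 60392634), an effector that assembles into oligomers on the vacuole of Toxoplasma, stood at 138, 86.7, 89.9 and 105 CPM in young CTL 1 to 4. In young CKO 1 to 4 it stood at 215, 198, 281 and 142 CPM. The groups did not overlap, though CKO 4 and CTL 1 were close. The genotypes differed by 1.00 on the log2 scale (SE 0.21, 95% interval 0.56 to 1.44, edgeR adjusted P = 0.0939), and it passed without CKO 4 (1.145, edgeR adjusted P = 0.0466).

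Tgtp1 stood at 97.0, 54.9, 69.7 and 86.9 CPM in young CTL 1 to 4 and at 175, 129, 193 and 93.0 CPM in young CKO 1 to 4. CKO 4 lay below CTL 1, and the other 3 CKO mice lay above the CTL mice. The log2 difference was 0.94 (SE 0.23, 95% interval 0.45 to 1.43, edgeR adjusted P = 0.205). Its near-copy Tgtp2 had more counts, with 180.3 to 271 CPM in CTL and 295 to 541 CPM in CKO mice and a log2 difference of 0.84 (SE 0.18, edgeR adjusted P = 0.101).

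An exact permutation test of each gene's mean log2 CPM (two-sided, 70 assignments, smallest possible P = 0.0286) gave P = 0.0286 for Irgm1, Igtp and Iigp1. The same exact permutation test gave P = 0.0571 for Irgm2, Ifi47 and Tgtp1, in each of which 1 CKO mouse reached into the CTL range. The tool decided how many members passed. With the likelihood ratio test over libraries, in which both libraries of a mouse count as replicates, 5 of 6 were called (all but Irgm2), beside 0.623% of all genes higher in CKO mice. DESeq2 over mice called 6 of 6 members, beside 0.503% of all genes, and with Y-linked counts as a covariate Igtp alone was called (edgeR adjusted P = 0.0478), beside 0.0694%. With limma over libraries, 2 of 6 were called, beside 0.170%, and they were Igtp (limma adjusted P = 0.00567) and the effector Ifi47 (0.0483), with Irgm1 at 0.0799.

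**Figure D2:**
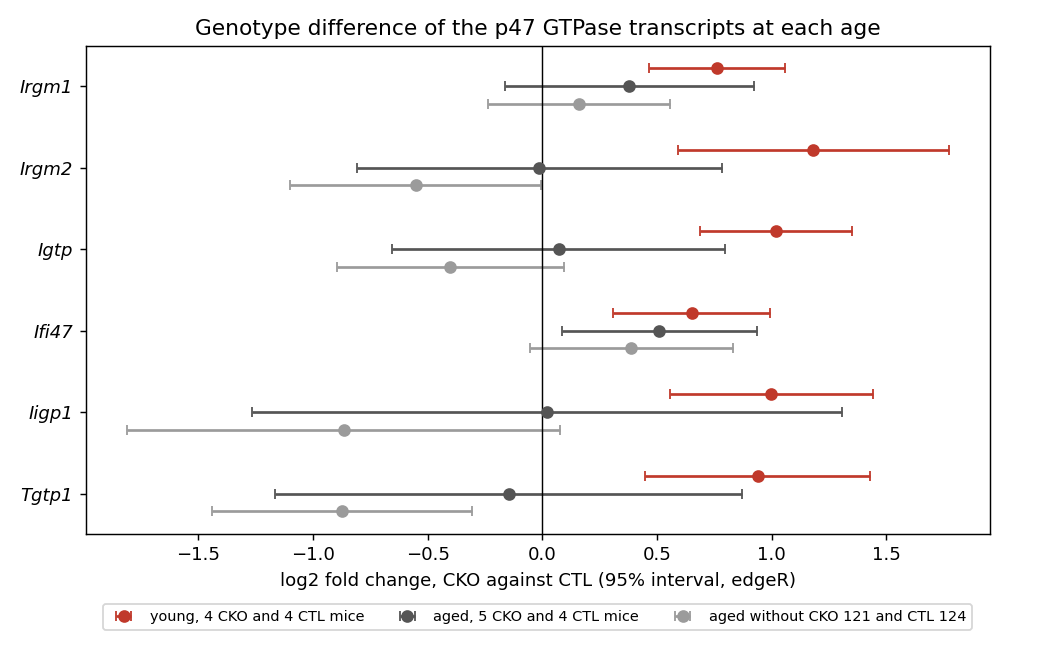
Log2 fold change of each gene in CKO against CTL mice (horizontal axis) with its 95% interval from edgeR, for young mice, aged mice and aged mice without the 2 mice that went against their labels. The 6 young intervals lie above 0, and of the aged intervals as labelled that of Ifi47 alone lies above 0.

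In aged HSCs, 0 of the 6 members were called, and 0% of 11961 genes passed the edgeR test in either direction. At an unadjusted P below 0.05, 532 genes were higher (4.45%) and 676 lower in aged CKO mice, and 1 member, Ifi47, was among the higher genes. DESeq2 called 104 genes and 0 members. The likelihood ratio test over libraries called 420 genes (1.21% higher in CKO mice) and 1 member, Ifi47. In 0 of 6 members did the CKO mice all stand above the CTL mice, which held for 1.78% of all genes.

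Ifi47 had the smallest P of the family in aged mice. It stood at 304, 330.5, 187 and 207 CPM in aged CTL 65, 99, 114 and 124 and at 411, 378, 310.4, 391 and 335 CPM in aged CKO 78, 81, 94, 121 and 122. Of the 5 CKO mice, 4 were above the highest CTL mouse, and CKO 94 was not. The log2 difference was 0.51 (SE 0.20, 95% interval 0.09 to 0.94, edgeR adjusted P = 0.417), and the exact permutation test gave P = 0.0159. Without CKO 121 and CTL 124 the difference was 0.39 (edgeR adjusted P = 0.497), with an exact permutation P of 0.0857 where the smallest possible is 0.0286.

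Irgm1 stood at 199.5, 215, 154 and 79.9 CPM in aged CTL 65, 99, 114 and 124 and at 219.7, 174, 247.5, 202 and 207 CPM in aged CKO 78, 81, 94, 121 and 122. The groups overlapped, with CTL 124 far below the other mice. The log2 difference was 0.38 (SE 0.25, edgeR adjusted P = 0.652) and 0.16 without the 2 mice (SE 0.18, edgeR adjusted P = 0.803).

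Igtp stood at 186.5, 250.5, 126.5 and 63.8 CPM in aged CTL 65, 99, 114 and 124, a span wider than that of the 8 young mice. In aged CKO 78, 81, 94, 121 and 122 it stood at 157, 123, 167, 252 and 123 CPM. The lowest CTL mouse and the highest CKO mouse were the 2 that went against their labels. The log2 difference was 0.07 (SE 0.34, edgeR adjusted P = 0.965) and without them -0.40 (SE 0.23, edgeR adjusted P = 0.540), while without aged CTL 99, the mouse with 1 library used, it was 0.38 (edgeR adjusted P = 0.662).

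Irgm2, Iigp1 and Tgtp1 had the same arrangement, with the mouse labelled CKO 121 highest among the aged CKO mice and the mouse labelled CTL 124 lowest among the aged CTL mice. For Irgm2 the aged CTL mice 65, 99, 114 and 124 were at 94.0, 116, 57.9 and 29.6 CPM, and the aged CKO mice 78, 81, 94, 121 and 122 at 71.1, 44.7, 64.4, 124 and 63.7 CPM. For Iigp1 the same CTL mice were at 104, 255, 46.2 and 24.2 CPM, and the same CKO mice at 90.6, 59.99, 97.5, 248 and 47.0 CPM. For Tgtp1 the CTL mice were at 101.5, 125, 57.6 and 16.95 CPM, and the CKO mice at 61.75, 45.0, 57.0, 132 and 42.45 CPM. Their log2 differences as labelled were -0.01 for Irgm2 (SE 0.37), 0.02 for Iigp1 (SE 0.60) and -0.15 for Tgtp1 (SE 0.47), with Tgtp2 at 0.12 (SE 0.39). Without the 2 mice they were -0.55 for Irgm2 (edgeR adjusted P = 0.428), -0.87 for Iigp1 (edgeR adjusted P = 0.473) and -0.87 for Tgtp1 (edgeR adjusted P = 0.200). Without aged CTL 99 they were 0.272, 0.89 and 0.194 in the same order, so the sign rested on which mice were included. Leaving out the 2 mice gave 40 called genes in the whole table, 0.208% higher in CKO mice, and 0 of 6 members. In that set 0 of 6 members had each CKO mouse above each CTL mouse, beside 6.07% of all genes.

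The difference between ages was tested as an interaction in a fit over the 17 mice. It called 0 of 12352 genes (255 larger and 333 smaller in aged mice at an unadjusted P below 0.05), with 4 genes by the likelihood ratio test over mice and 0 by DESeq2. The estimates of the 6 members were below 0, meaning a smaller CKO against CTL difference in aged mice. At an unadjusted P below 0.05, 2 of 6 members were smaller, beside 2.70% of all genes. They were Irgm2 (-1.19, SE 0.50, unadjusted P = 0.0264) and Igtp (-0.94, SE 0.40, unadjusted P = 0.0280), both with an edgeR adjusted P of 0.999. Without aged CTL 99, a single library, they were -0.90 (unadjusted P = 0.0803) and -0.63 (unadjusted P = 0.101), and Iigp1 went to -0.10. Both were also above an unadjusted P of 0.05 without aged CTL 65 (0.0566 and 0.0557) and without young CKO 1 (0.0715 and 0.0515), as was Igtp without young CTL 3 (0.0524). With limma over libraries Irgm2 was -0.41 (unadjusted P = 0.623). For Tgtp1 the estimate was -1.07 (SE 0.58) beside -0.71 for Tgtp2 (SE 0.47), for Iigp1 -0.96 (SE 0.71), for Irgm1 -0.38 (SE 0.30) and for Ifi47 -0.14 (SE 0.26). Without the 2 mice, 1 member passed, where 0.113% of all genes had a smaller difference in aged mice. It was Igtp (-1.41, SE 0.28, edgeR adjusted P = 0.0405), while Tgtp1 came next (-1.80, SE 0.37, edgeR adjusted P = 0.0593).

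Between aged and young CTL mice, 1 of 6 members differed at an adjusted P below 0.05, where 14.8% of 12352 genes did (edgeR). The median log2 difference over all genes was 0.11. Irgm2 was higher in aged CTL mice by 1.19 (SE 0.37, edgeR adjusted P = 0.0335), with 3 of 4 aged CTL mice above the highest young CTL mouse. With limma over libraries it was 0.569 (limma adjusted P = 0.614), and with the quasi-likelihood test over libraries Irgm2 was not called (edgeR adjusted P = 0.0575) and Ifi47 was (-0.445, edgeR adjusted P = 0.0399), beside 19.4% of all genes. In the fit over mice, leaving out any 1 of 6 mice ended the call of Irgm2 (edgeR adjusted P between 0.0629 and 0.121). The 6 were the young CTL mice, aged CTL 65 and aged CTL 99. For the others the log2 difference was 0.45 for Igtp (SE 0.29), 0.01 for Iigp1 (SE 0.52), -0.05 for Tgtp1 (SE 0.42) beside -0.28 for Tgtp2 (SE 0.34), -0.40 for Ifi47 (SE 0.19) and -0.42 for Irgm1 (SE 0.22). The sign of the Iigp1 and Tgtp1 values changed with the setting. Without the 2 mice, 2 of 6 members differed, beside 17.6% of all genes, Irgm2 (1.46) and Igtp (0.71, edgeR adjusted P = 0.0200). Igtp also passed without aged CTL 124 alone (0.69, edgeR adjusted P = 0.0491), and without aged CTL 99, a single library, its difference was 0.125 (edgeR adjusted P = 0.816).

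Compared per kilobase of annotated exon, the order of the genes in young CTL mice was Ifi47 at 137 ± 24.4, Igtp at 56.7 ± 8.06, Irgm1 at 37.3 ± 5.19, Tgtp1 at 24.1 ± 5.81, Iigp1 at 18.0 ± 4.06 and Irgm2 at 8.76 ± 1.14 CPM per kb (SD, n = 4). Of these neighbors, Tgtp1 and Iigp1 overlapped in their ranges over mice and the other neighbors did not. Lengths were the union of a gene's annotated exons, 5810 bases for Irgm1, 2022 for Igtp, 5823 for Iigp1 and 3205 for Tgtp1. The transcript with the longest coding sequence had 2259, 2022, 3121 and 2823 bases in these genes. The places of Irgm1 beside Igtp and of Iigp1 beside Tgtp1 therefore rest on the length used, and no other length was tested. Tgtp2, at 77.2 ± 12.8 CPM per kb, would stand above Igtp, and the part of shared reads in the place of Tgtp1 was not tested. Young CKO mice had the same order, from 215 ± 37.0 CPM per kb for Ifi47 to 19.8 ± 7.76 for Irgm2, with overlap from Irgm1 down. In the aged groups the means of Ifi47, Igtp, Irgm1 and Tgtp1 again came in this order, though in aged CTL mice each neighboring pair overlapped in range and in aged CKO mice Irgm1 and Tgtp1 did, and Irgm2 (20.2 ± 10.4 in aged CTL and 19.9 ± 8.07 in aged CKO mice) stood beside Iigp1 (18.4 ± 17.9 and 18.7 ± 13.8), with ranges that overlapped.

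**Figure D3:**
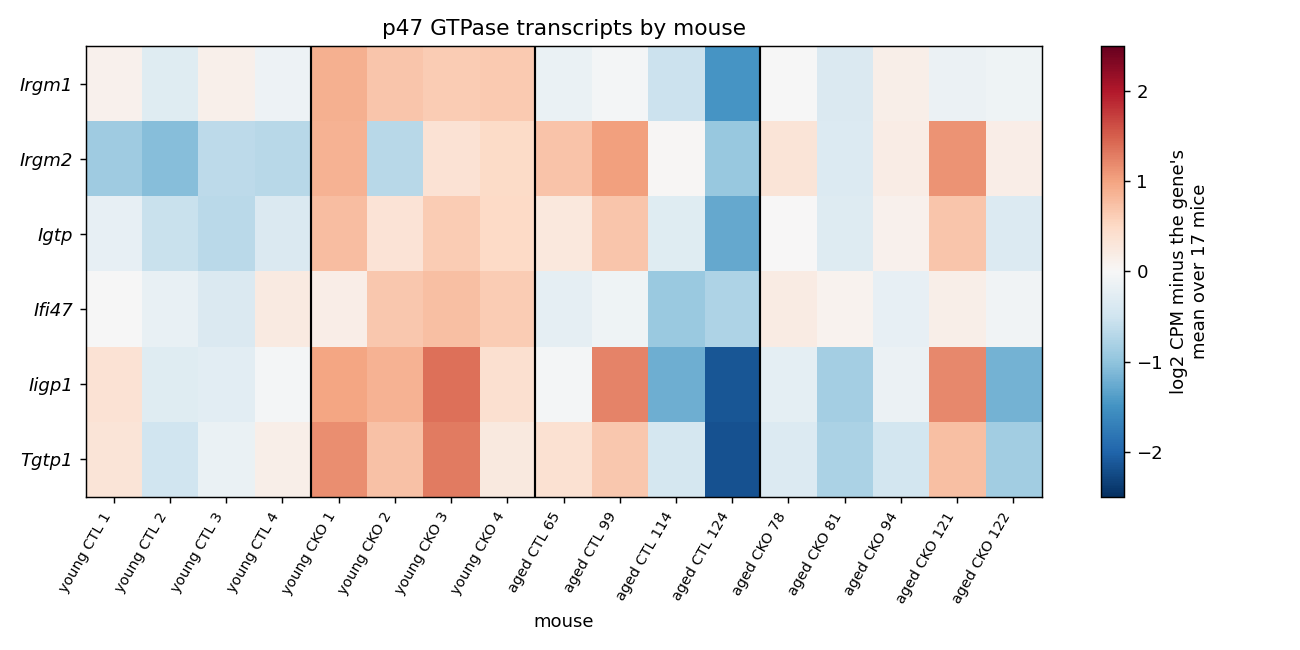
Log2 CPM of each gene in each mouse minus the gene's mean over the 17 mice (color scale), with black lines between the groups. The columns of the 4 young CKO mice, aged CTL 99 and aged CKO 121 are mostly red, and that of aged CTL 124 is blue for the 6 genes.

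The members varied together to different degrees. The mean log2 CPM over the 6 members was between 6.59 and 7.02 in young CTL and between 7.51 and 7.92 in young CKO mice. In aged mice it was 7.23, 7.65, 6.51 and 5.61 in CTL 65, 99, 114 and 124, and 7.06, 6.65, 7.01, 7.70 and 6.67 in CKO 78, 81, 94, 121 and 122. The aged CTL mice thus ran from below the young CTL mice to within the range of the young CKO mice, and young CKO 1 and 3 stood above each of them. Against the mean of the other 5, Pearson's r over the 17 mice was 0.95 for Igtp, 0.92 for Tgtp1, 0.91 for Iigp1, 0.80 for Irgm1, 0.67 for Ifi47 and 0.54 for Irgm2. With group means subtracted it was 0.98 for Igtp, 0.95 for Tgtp1, 0.92 for Iigp1, 0.80 for Irgm2, 0.76 for Irgm1 and 0.50 for Ifi47. For Irgm2 and Ifi47 over the 17 mice, and for Irgm1 and Ifi47 with group means subtracted, r was below the 99th percentile of all other genes with the members' mean (0.69 and 0.78). These are descriptions over 17 mice that share genotype, age group and cell sort, and for Tgtp1, Igtp and Irgm2 some sequence.

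Of the 12346 other genes ranked by correlation with the members' mean (99th percentile 0.69), the 10 most alike included Tgtp2 (r = 0.95), Serpina3f (0.905), Gm12185 (0.88), Gm4951 (0.85), Parp11 (0.85), Gbp4 (0.84), Lats2 (0.84), F830016B08Rik (0.835) and Socs4 (0.82). Tgtp2, Gm4951 and F830016B08Rik are further p47 family genes or relatives, and Gbp4 belongs to the guanylate-binding proteins. Gm12185, whose promoter window was one of the 5 with the joined motif, stood at 11.8 ± 8.89 CPM in young CTL and 29.2 ± 14.3 CPM in young CKO mice (log2 difference 1.32, SE 0.46, edgeR adjusted P = 0.508). With group means subtracted, ranks 1, 3, 4 and 5 went to Tgtp2, Gm12185, Lats2 and Serpina3f.

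**Figure D4:**
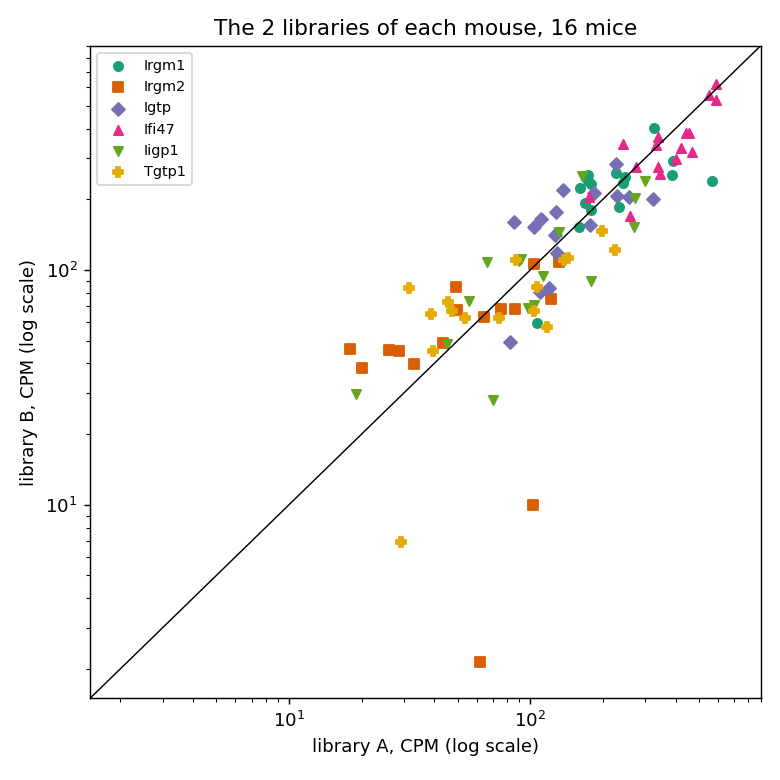
CPM in library B against library A of the same mouse (both axes log scale), 1 point per gene and mouse for the 16 mice with 2 libraries, with the line of equality. Points for Ifi47 lie near the line, and 2 points of Irgm2 and 1 of Tgtp1 lie far below it.

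For each mouse but aged CTL 99, whose second library was left out for its low counts, 2 libraries of 100 cells could be compared. The median absolute log2 ratio between them was 0.24 for Ifi47, equal to that of genes within 1.5-fold of its level (0.24). It was 0.35 for Irgm1 (0.245 for genes at its level), 0.45 for Igtp (0.27), 0.46 for Iigp1 (0.29), 0.46 for Tgtp1 (0.34) and 0.545 for Irgm2 (0.385). Irgm2 had 367 counts in library A and 17 in library B of young CKO 3, and 203 and 8 in aged CTL 124. Tgtp1 had 95 and 26 in aged CTL 124. The libraries of young CKO 1 differed for Irgm1, with 1521 counts in A and 569 in B.

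**Figure D5:**
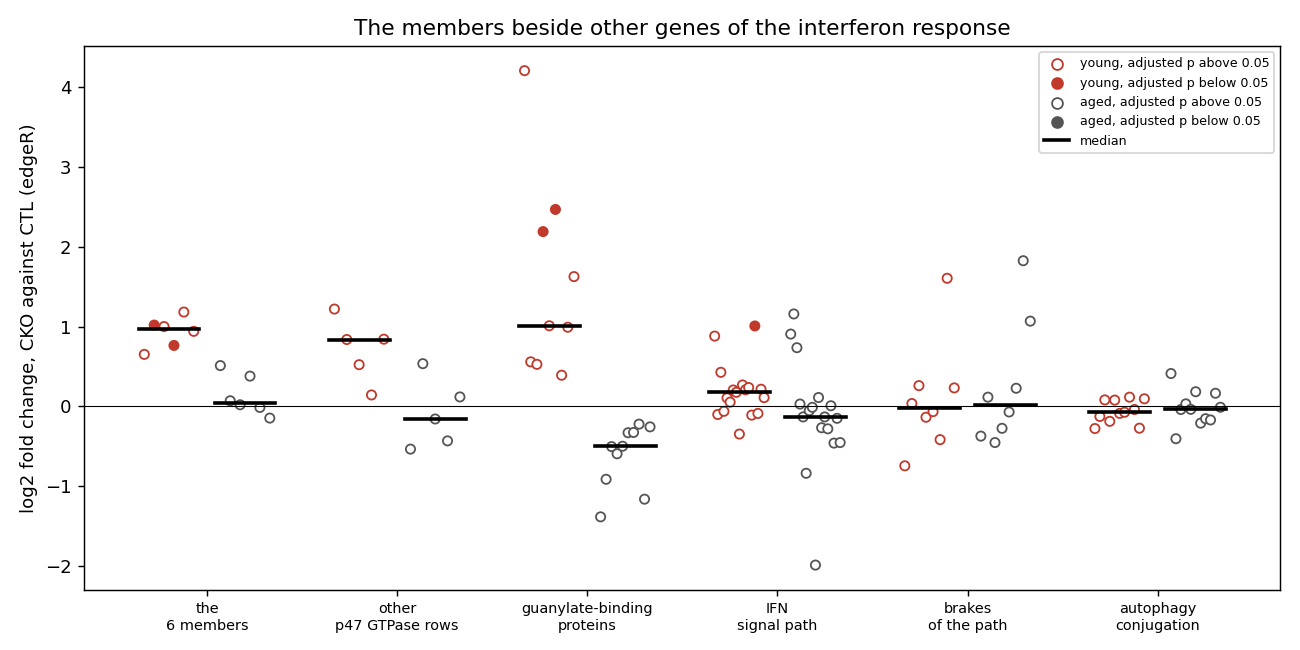
Log2 fold change in CKO against CTL mice (vertical axis) for each tested gene of 6 lists, young beside aged, filled where the edgeR adjusted P was below 0.05, with the median as a bar. In young mice the members and the guanylate-binding proteins lie above 0, and in aged mice the guanylate-binding proteins lie below 0 with 0 of 10 called.

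The genes around the family were taken from lists of pathway roles. Of 12 other p47 names, 7 had a row and 5 were tested in young mice. None was called (edgeR; 2 of 5 at an unadjusted P below 0.05, Tgtp2 and F830016B08Rik), and the median log2 difference was 0.84. F830016B08Rik was at 1.22 (SE 0.46), Gm4841 at 0.84 (SE 0.45), Gm4951 at 0.52 (SE 0.35) and Irgq, a distant relative, at 0.14 (SE 0.39). In aged mice their median was -0.16.

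On the path from the receptor to the promoter, 17 of 18 genes had a row (Ifng, the ligand, had none). The median of the list in young mice was 0.18. Among the genes not called there, the highest values were 0.88 for Batf2 (SE 0.45), an interferon-induced bZIP factor, and 0.43 for Ifnar1 (SE 0.23), a chain of the type I receptor. The lowest were -0.35 for Irf8 (SE 0.74) and -0.11 for Nlrc5 (SE 0.33), the activator of MHC class I genes. In aged mice 0 of 17 were called (edgeR; 1 higher and 2 lower with P under 0.05 before adjustment), and the median was -0.13.

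The 8 genes that slow the path, among them SOCS proteins and phosphatases, gave 0 calls in young mice (edgeR; 1 higher and 1 lower with P under 0.05 before adjustment) with a median of -0.01. Socs3, an inhibitor of JAK kinases, was at 1.60 (SE 0.72) and Ptpn1 at 0.26 (SE 0.21), while Cish was at -0.74 (SE 0.27) and Socs1 at -0.42 (SE 0.33). In aged mice the median was 0.02 and 0 were called (edgeR; 2 higher at an unadjusted P below 0.05).

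The guanylate-binding proteins, partners of the p47 GTPases on pathogen vacuoles, gave 2 calls among 9 tested genes in young mice, Gbp4 (2.19, SE 0.36, edgeR adjusted P = 0.0201) and Gbp6 (2.46, SE 0.44, edgeR adjusted P = 0.0406). The median of the 9 was 1.01, and 8 of 9 were higher at an unadjusted P below 0.05 (edgeR), beside 4.26% of all genes. Of the rest, Gbp9 was at 1.62 (SE 0.50), Gbp3 at 0.53 (SE 0.25) and Gbp7 at 0.39 (SE 0.15). Gbp11 had 0 to 4 counts per young CTL mouse and 9 to 61 per young CKO mouse. Gbp10, with 0 to 3 and 1 to 65 counts, did not pass the filter in young mice. In aged mice the 10 estimates were below 0, with a median of -0.50 and 0 calls (edgeR; 1 lower at an unadjusted P below 0.05, Gbp8).

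The autophagy conjugation genes, whose products help place the p47 GTPases, gave 0 calls among 11 in young mice (edgeR; 0 at an unadjusted P below 0.05), with values from -0.28 for Atg10 (SE 0.22) and -0.27 for Map1lc3a (SE 0.25) to 0.10 for Map1lc3b (SE 0.17) and 0.12 for Gabarapl1 (SE 0.16). Their medians were -0.07 in young and -0.04 in aged mice.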

How the data were processed

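HSC libraries were aligned by the authors to GRCm38 with HISAT2 and counted on genes with Rsubread, and the deposited table holds these raw counts per gene and library, not normalized. The annotation, the use of strand and the rule for shared reads are not given in the sources used here. Library aged CTL 99 B (187034 counts) was left out for its low counts, as the series' own design text does. Counts of a mouse's libraries were summed, filtered with filterByExpr (minimum count 10), scaled by TMM and tested with the quasi-likelihood test of edgeR 4.0.16 in R 4.3.3, Benjamini-Hochberg adjusted over all genes at 0.05, each age apart, with a fit over 17 mice for comparisons between ages. SE is the log2 fold change over the square root of F. Log2 CPM used a prior count of 2. The procedure was run on simulated data, and its rate of recovery there is not reported here. The genes named are the 6 members, Ythdf2, genes on fixed lists (called genes and up to 4 others, the 2 highest and 2 lowest) and the 10 genes most like the members' mean. Members and lists were chosen with earlier results of these data known. Alternatives were limma 3.58.1, DESeq2 1.42.0, tests over libraries, other filters and scalings, a Y-linked covariate and mice left out. Promoter windows are from RefSeq and transcripts from GENCODE M21, both GRCm38. Libraries lack molecular identifiers. Some genes of the fixed lists and of the 10 most alike are not reported here.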

Additional observations from a re-analysis of the deposited data

Results flagged for a closer look

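In 24 groups of 4 or 5 mice (6 genes in 4 groups), 2 held a mouse whose distance from its nearest neighbor was a large part of the group's range by Dixon's criterion, which chance gives in about 1 group in 20. Both concern the mouse labelled aged CKO 121. Iigp1 stood at 247.8 CPM in that mouse and at 97.49 CPM in the next highest aged CKO mouse. Tgtp1 stood at 132.4 CPM there and at 61.75 CPM in the next. The same mouse had Ythdf2 at 188 CPM, above the 4 aged CTL mice, so its distance from the other aged CKO mice and the doubt about its label come together. The part of the label in these values was not tested.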

How the results depend on the processing

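The young differences of the 6 members were above 0 under each of the 20 alternatives, and their calls (2 of 6) were not stable. The likelihood ratio tests over mice and over libraries called 5 members, the quasi-likelihood test over libraries 4, DESeq2 6, the Y-linked covariate 1, a fit of all mice together 0, and leaving out 1 mouse 0 to 2. With the library letter as a replicate block 4 members were called, and with the mouse number as a replicate block 1. Mouse numbers did not pair the mice (correlations of deviations between -0.04 and 0.05). Over all genes the young count of 20 became 67 and 90 with the likelihood ratio tests over mice and libraries, 47 with the quasi-likelihood test over libraries, 77 with DESeq2, 9 with the Y-linked covariate, 1 in the fit of all mice and 50 with the library letter as a block. The aged count of 0 genes became 76, 420, 130 and 104 with the first 4 of these tools, 5 in the fit of all mice and 40 with the letter block or without the mice labelled aged CKO 121 and aged CTL 124. In aged mice 1 member was called by the likelihood ratio test over libraries. The age difference gave 1 member without those 2 mice. Aged against young CTL mice gave 2 members with the likelihood ratio test over libraries (Irgm2 higher and Ifi47 lower) and 0 with limma. These tools called 2593 and 1739 of 11737 genes. Without the 2 mice that comparison gave 2 members, beside 17.6% of all genes. With 1 mouse left out it gave 0 to 2, beside 896 to 2048 genes called.

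Signs changed for aged values near 0. Without the 2 mice, aged Igtp was -0.40 and aged Iigp1 -0.87, and Iigp1 was -0.006 with DESeq2. Aged Irgm2 was 0.067 and 0.068 with the likelihood ratio and quasi-likelihood tests over libraries, 0.595 with limma, 0.081 with the Y-linked covariate, 0.133 with the letter as a replicate block and 0.027 with library aged CTL 99 B added. Aged Tgtp1 was 0.0, 0.001 and 0.291 with the tests over libraries and limma. Between aged and young CTL mice Iigp1 was -0.263, -0.265 and -0.661 with those 3, -0.002 without a filter and -0.139 with 99 B added, and Tgtp1 was 0.039 with the Y-linked covariate and 0.288 without the 2 mice. With 1 mouse left out, aged values ran from -0.20 to 0.38 for Igtp, -0.289 to 0.272 for Irgm2, -0.534 to 0.89 for Iigp1 and -0.537 to 0.194 for Tgtp1. The age difference of Ifi47 ran from -0.261 to 0.002, and aged against young CTL from -0.856 to 0.331 for Iigp1 and -0.40 to 0.273 for Tgtp1. The causes were not tested. Of the 10 genes most like the members, 5 were shared with group means subtracted and 5 with Spearman's rho.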
